A study of Arabidopsis thaliana with 12 samples.

Results

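Calmodulin-like genes were followed in shoots of Arabidopsis thaliana across genotype and heat. Members were taken by name: a probe set had to be annotated to a single gene whose symbol was CAM, CML, CBL, CPK, CDPK or CIPK followed by a number, with 1 probe set kept per gene. The rule found 7 genes among the 13356 that had a single-gene probe set, and all 7 were calmodulin-like genes, namely CML23 (AT1G66400), CML30 (AT2G15680), CML37 (AT5G42380), CML38 (AT1G76650), CML41 (AT3G50770), CML42 (AT4G20780) and CML43 (AT5G44460). The RefSeq annotation lists 81 genes under such symbols, and the other 74, among them every calmodulin (CAM), calcineurin B-like sensor (CBL), calcium-dependent kinase (CPK or CDPK) and CBL-interacting kinase (CIPK), were not analysed here. The results therefore speak of 7 sensors and of no kinase.

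RNA came from the above-ground parts of 8-week-old soil-grown plants, each sample on 1 Affymetrix array, and the values were log2 RMA signals. The 4 groups were untreated Col-0 wild type (n = 2), heated Col-0 wild type (n = 3), untreated msh1 recA3 double mutant in the Col-0 background (n = 4) and heated msh1 recA3 double mutant (n = 3). MSH1 and RECA3 are nuclear genes whose products maintain organelle DNA, and the probe sets of both genes were not analysed here, so the genotype labels were not checked. All plants grew at 24 °C, and heat was 37 °C, for 2 h by the design text and for about 24 h by the treatment protocol, and the sources do not settle which of these lengths applied. With so few arrays precision is limited, most of all where n = 2.

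Calcium rises in the cytosol within moments of heat, touch, wounding or microbial contact, and EF-hand proteins bind the ions and pass the signal on. Calmodulin is the classic plant and animal sensor, and plants carry a large added family of calmodulin-like proteins that have EF-hands but no kinase domain. Calcium-dependent kinases carry sensor and kinase in 1 protein, whereas CBL proteins act by binding CIPK kinases.

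The shoot label was checked on markers. Of 17 listed leaf and shoot markers 2 were named on the array, and both, RCA (Rubisco activase) and LHCB4.1 (a photosystem antenna protein), had log2 signals above 13.0 on all 12 arrays. Of 10 listed root markers 2 were named: EXPA7, a root hair expansin, lay between 3.61 and 4.13 on every array, near the lower quartiles of the arrays (3.67 to 3.79), and PYK10, a root-associated glucosidase, lay between 5.94 and 8.88. None of 8 flower and pollen markers was named. PYK10 was higher in the untreated double mutant than in the untreated wild type by 1.72 ± 0.33 (SE, limma adjusted p = 0.0234) and its heat difference in the double mutant was -1.73 ± 0.29 (SE, limma adjusted p = 0.000699). EXPA7 differed in the opposite direction in both comparisons, by -0.38 ± 0.10 (SE, limma adjusted p = 0.0694) and 0.11 ± 0.09 (SE, limma adjusted p = 0.365), and passed in neither. RCA was higher in the untreated double mutant by 0.46 ± 0.09 (SE, limma adjusted p = 0.0291) and rose with heat in the wild type by 0.32 ± 0.10 (SE, limma adjusted p = 0.0312), and the heat difference of LHCB4.1 in the double mutant was -0.23 ± 0.07 (SE, limma adjusted p = 0.0173). The part of these shifts in the results below was not tested. On the second principal component over all probe sets (10.2% of the variance), heated double mutant replicate 3 scored 8.73, whereas replicates 1 and 2 of its group scored -22.5 and -26.8. Heated wild type replicates 1, 2 and 3 scored 16.3, 13.5 and 15.0, so heated double mutant replicate 3 lay nearer to them than to its own group. Among untreated double mutants, replicates 1 and 2 (-2.95 and -0.964) lay apart from 3 and 4 (-22.9 and -30.9).

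CML42 was lower after heat in both genotypes. This sensor is known for its part in trichome branching and in defence against insects. In the untreated wild type its log2 signal was 5.75 and 5.84, and in the heated wild type it was 4.50, 4.87 and 5.19. In the untreated double mutant the 4 arrays read 5.85, 5.40, 5.94 and 5.95, and the heated double mutant read 5.06, 4.63 and 4.95. Every heated array lay below every untreated array of either genotype. The log2 difference, heated minus untreated, was -0.94 ± 0.21 (SE) in the wild type (limma adjusted p = 0.00681) and -0.91 ± 0.18 (SE) in the double mutant (limma adjusted p = 0.00219). On the linear scale the signal was 1.92-fold lower in the wild type and 1.87-fold lower in the double mutant. In these bulk samples fewer cells of a type and less RNA per cell cannot be told apart. The heat response of the double mutant minus that of the wild type was 0.04 (95% confidence interval -0.57 to 0.65). Of the 21 alternatives run for single genes, the call in the double mutant held in 21 and that in the wild type in 20. It was lost in the wild type without untreated wild type replicate 2, which left 1 array in that group. When a log2 difference of at least 1 was also required, CML42 was called in neither genotype and CML41, in the wild type, was the 1 gene called. The numbers of alternatives given for single genes, here and below, leave out that size threshold and the fit to only the compared groups. They include some that could not change a difference. Each of the 7 genes had 1 probe set, so averaging probe sets left it as it was. Leaving out arrays of the other genotype could change only the shared spread and so the p-value. That fit called 3 of the 7 genes with heat in the wild type, 2 higher and 1 lower. At least 1 of CML41 and CML42 was therefore not called in it.

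CML30 rose with heat in the wild type. Its protein is known to be targeted to mitochondria. The untreated wild type read 5.49 and 5.68 and the heated wild type 6.26, 6.08 and 6.19, so that the groups did not overlap. The difference was 0.59 ± 0.17 (SE) on the log2 scale, a 1.51-fold higher signal (limma adjusted p = 0.0236). The untreated double mutant read 5.74, 5.59, 5.81 and 5.74, and the heated double mutant 5.58, 5.31 and 6.03. Heated double mutant replicate 3 thus lay near the heated wild type, while replicate 2 lay below every untreated double mutant array. Replicate 1 (5.577) was nearly level with the lowest untreated double mutant array (5.586).

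The heat difference of CML30 in the double mutant was -0.08 (95% confidence interval -0.39 to 0.23, limma adjusted p = 0.706). After heat the double mutant was lower than the wild type by 0.54 ± 0.15 on the log2 scale (SE, limma adjusted p = 0.149), and all 3 of its arrays lay below the 3 wild-type arrays. The heated genotypes did not overlap for 3440 of all 22746 probe sets, and for 2 of the 7 genes. The difference of the heat responses was -0.67 ± 0.22 (SE), with an unadjusted p of 0.0110 and an adjusted p of 0.334 by limma, so a difference between genotypes was not established. Without heated double mutant replicate 3 the heated double mutant was lower by 0.73 on the log2 scale, and that difference passed the test (limma adjusted p = 0.00750), as it did with array weights (-0.61, adjusted p = 0.0310). Over its 21 alternatives the adjusted p of this comparison ran from 0.00750 to 0.466. The heat call in the wild type was lost in 5 of 21 alternatives: the replicate block and the fits without untreated wild type replicate 1 or 2 and without heated wild type replicate 1 or 3 (adjusted p up to 0.166).

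**Figure D1:**
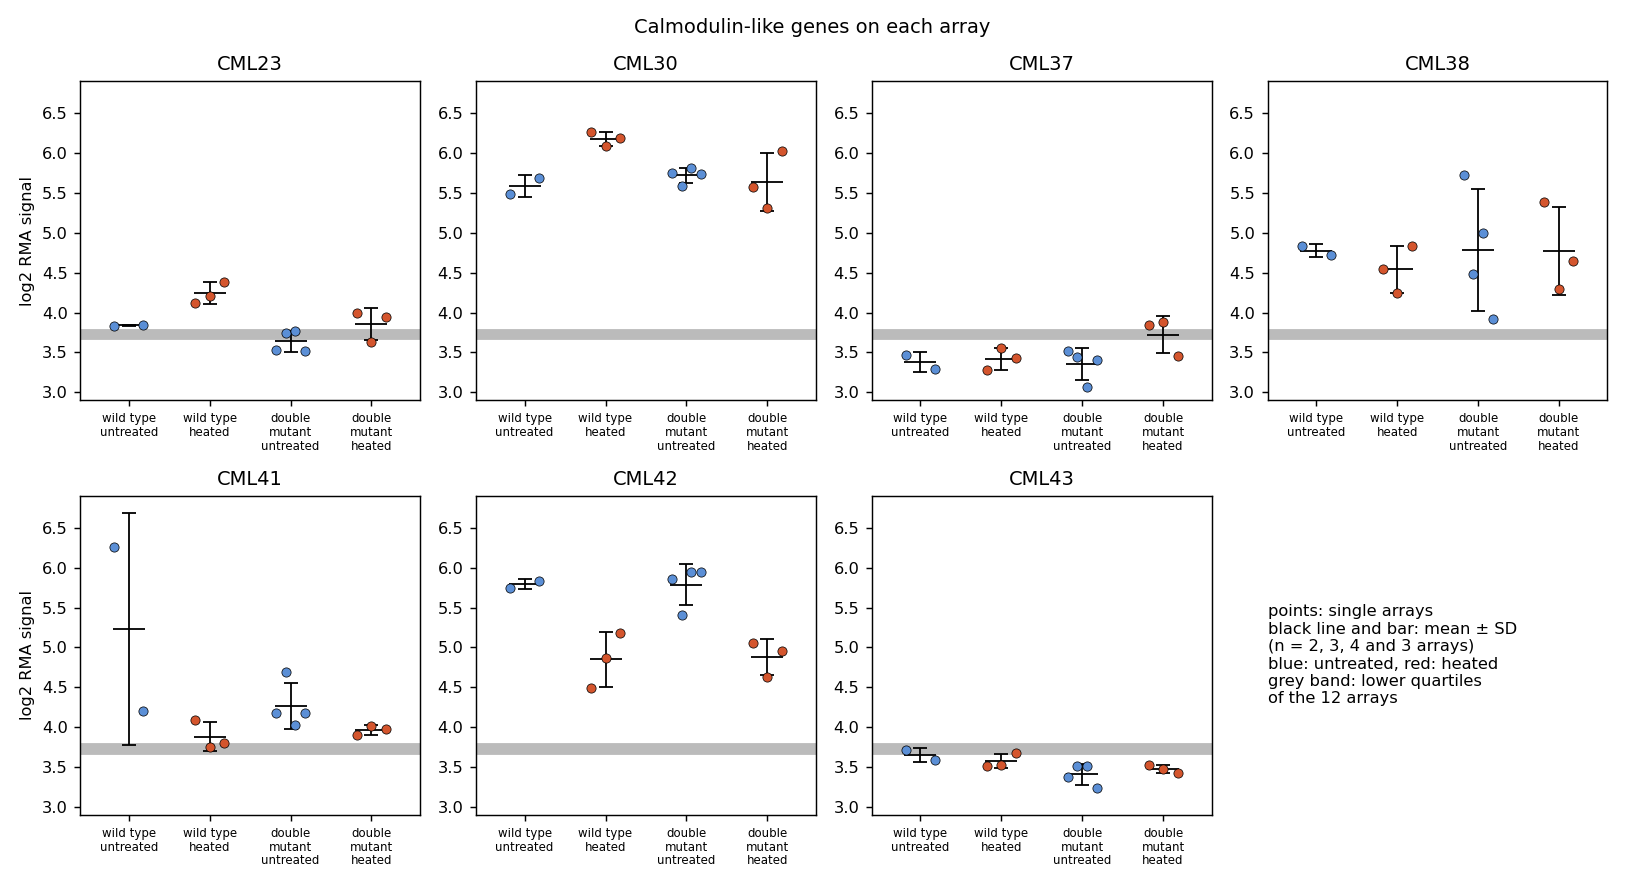
Log2 RMA signal (vertical axes) of the 7 calmodulin-like genes on each of the 12 arrays, by group, with the mean ± SD of each group in black and the lower quartiles of the arrays (3.67 to 3.79) as a grey band. CML42 sat below its untreated arrays on every heated array, CML30 was raised on the 3 heated wild-type arrays, and 1 untreated wild-type array stood at 6.26 for CML41.

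CML23 rose slightly with heat in the wild type. It is a close relative of the touch-induced sensor CML24 and is known from work on flowering time and nitric oxide. The untreated wild type read 3.83 and 3.85, and the heated wild type 4.12, 4.21 and 4.39. The difference was 0.40 ± 0.13 (SE) on the log2 scale, a 1.32-fold higher signal (limma adjusted p = 0.0455). In the double mutant the untreated arrays read 3.53, 3.74, 3.77 and 3.52 and the heated arrays 4.00, 3.63 and 3.95, which overlapped. The difference there was 0.22 ± 0.11 (SE, limma adjusted p = 0.161), and that of the 2 responses was -0.18 (95% confidence interval -0.56 to 0.20). After heat all 3 double mutant arrays lay below the 3 wild-type arrays, by 0.38 ± 0.12 on the log2 scale (SE, limma adjusted p = 0.188). As given for CML30, 3440 of all 22746 probe sets did not overlap in this comparison. CML23 signals lay close to the lower quartiles of the arrays, and they were not shown to exceed background. The wild-type call was lost in 10 of 20 alternatives (adjusted p from 0.0249 to 0.169), among them centring on reference genes (0.34, adjusted p = 0.0816). With that centring CML23 was called in the double mutant instead (0.37, adjusted p = 0.0221), as it was without heated double mutant replicate 2 (0.33, adjusted p = 0.0407). The centring by itself moved the median heat difference over all probe sets by 0.15 in the double mutant, and its reference genes were not all stable with heat.

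CML41, a sensor found at plasmodesmata and tied to callose closure in immunity, was called lower in the heated wild type, but 1 array decided the size. Its untreated wild-type arrays read 6.26 and 4.21. The heated wild type read 4.09, 3.75 and 3.80, the untreated double mutant 4.18, 4.69, 4.02 and 4.18, and the heated double mutant 3.90, 4.02 and 3.97. Untreated wild type replicate 1 was thus higher than each of the other 11 arrays by over 1 on the log2 scale. The heat difference in the wild type was -1.35 ± 0.43 (SE, limma adjusted p = 0.0385). Without that replicate it was -0.32 and was not called (adjusted p = 0.407), and without untreated wild type replicate 2 it was -2.38. In the double mutant every heated array lay below every untreated one, with a difference of -0.30 ± 0.36 (SE, limma adjusted p = 0.566). That SE comes from the spread shared by all groups, which the 2 untreated wild-type arrays widened (SD 1.46). The SD was 0.29 in the untreated and 0.06 in the heated double mutant, so the test says little about the double mutant alone. The heated arrays of both genotypes (3.75 to 4.09) lay close to the lower quartiles of the arrays (3.67 to 3.79). In all, the wild-type call of CML41 was lost in 9 of 20 alternatives.

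CML37 and CML38 are known as genes induced by wounding, CML37 in jasmonate-linked defence and CML38 also in low oxygen, where its protein joins RNA granules. CML37 read 3.47 and 3.29 in the untreated wild type, 3.28, 3.55 and 3.43 in the heated wild type, 3.52, 3.44, 3.07 and 3.41 in the untreated double mutant, and 3.84, 3.88 and 3.45 in the heated double mutant. Its mean was under the lowest lower quartile of the arrays (3.67) in 3 groups, and only the heated double mutant stood higher, through replicates 1 and 2. The heat difference of CML37 was 0.04 ± 0.16 (SE) in the wild type and 0.37 ± 0.13 (SE) in the double mutant, where it did not pass (limma adjusted p = 0.0555). It passed in 5 of 20 alternatives, among them the fit without heated double mutant replicate 3 (0.50, adjusted p = 0.0132) and trend and robust moderation (adjusted p = 0.0274), and its adjusted p ran from 0.0132 to 0.246.

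CML38 varied widely between arrays of the same group. The untreated double mutant read 5.72, 4.49, 5.001 and 3.92, a span wider than any shift between its group means. The untreated wild type read 4.83 and 4.72, the heated wild type 4.55, 4.24 and 4.83, and the heated double mutant 5.38, 4.29 and 4.65. The heat difference was -0.23 (95% confidence interval -1.20 to 0.73) in the wild type and -0.01 (95% confidence interval -0.82 to 0.80) in the double mutant, so these arrays could not have shown a small change of CML38. Its residual SD within groups was 0.565 on the log2 scale, higher than in 98.9% of all probe sets. That of CML41 was 0.553, higher than in 98.8%, whereas the median of all probe sets was 0.159 and CML23, CML30, CML37, CML42 and CML43 ranged from 0.101 to 0.261. The group SD of CML41 was 1.46 in the untreated wild type and 0.06 to 0.29 in the other groups. For CML38 it was 0.77 in the untreated and 0.55 in the heated double mutant, and 0.08 and 0.29 in the untreated and heated wild type.

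CML43, linked to the hypersensitive response to pathogens, had group means of 3.41 to 3.65, all under the lowest lower quartile of the arrays. Its arrays ran from 3.24, in the untreated double mutant, to 3.71, in the untreated wild type. The heat differences were -0.07 ± 0.10 (SE) in the wild type and 0.07 ± 0.09 (SE) in the double mutant, and neither passed (limma adjusted p = 0.678 and 0.614). AT1G76640, which RefSeq lists with the synonym CML39 and which is not among the 7 genes because its symbol is its locus number, was added after the annotation was seen. Its group means were 3.44 to 3.55, also under that quartile, and its heat differences were 0.08 ± 0.13 and 0.07 ± 0.11 (SE, limma adjusted p = 0.704 and 0.654). RefSeq gives the synonym CML39 to CML37 too.

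Taking the 7 genes together, heat in the wild type was called for 4, with CML23 and CML30 higher and CML41 and CML42 lower. Over all 22746 probe sets 26.5% were called in this comparison, 13.7% higher and 12.8% lower. The groups did not overlap for 4 of the 7 genes, and for 52.4% of all probe sets. The median log2 difference of the 7 genes was -0.07, beside 0.01 over all probe sets. Heat in the double mutant was called for 1 of 7 genes, CML42, while 34.0% of all probe sets were called, 13.8% higher and 20.2% lower. There the groups did not overlap for 2 genes, CML41 and CML42, and for 38.3% of all probe sets. The median was -0.01 for the genes and 0.01 for all probe sets. With so few genes 1 call moves the share widely, and no direction against the background is read from it. The wild-type count was 1 with the replicate block, where 5291 of all probe sets were called, and the double mutant count was 3 with arrays centred on reference genes, where 9649 were. The wild-type count was also 1 without untreated wild type replicate 1, without untreated wild type replicate 2 or without heated wild type replicate 3, and 2 without heated wild type replicate 1 or 2 or without untreated double mutant replicate 1. The double mutant count was 2 without untreated double mutant replicate 1 or heated double mutant replicate 2 or 3.

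**Figure D2:**
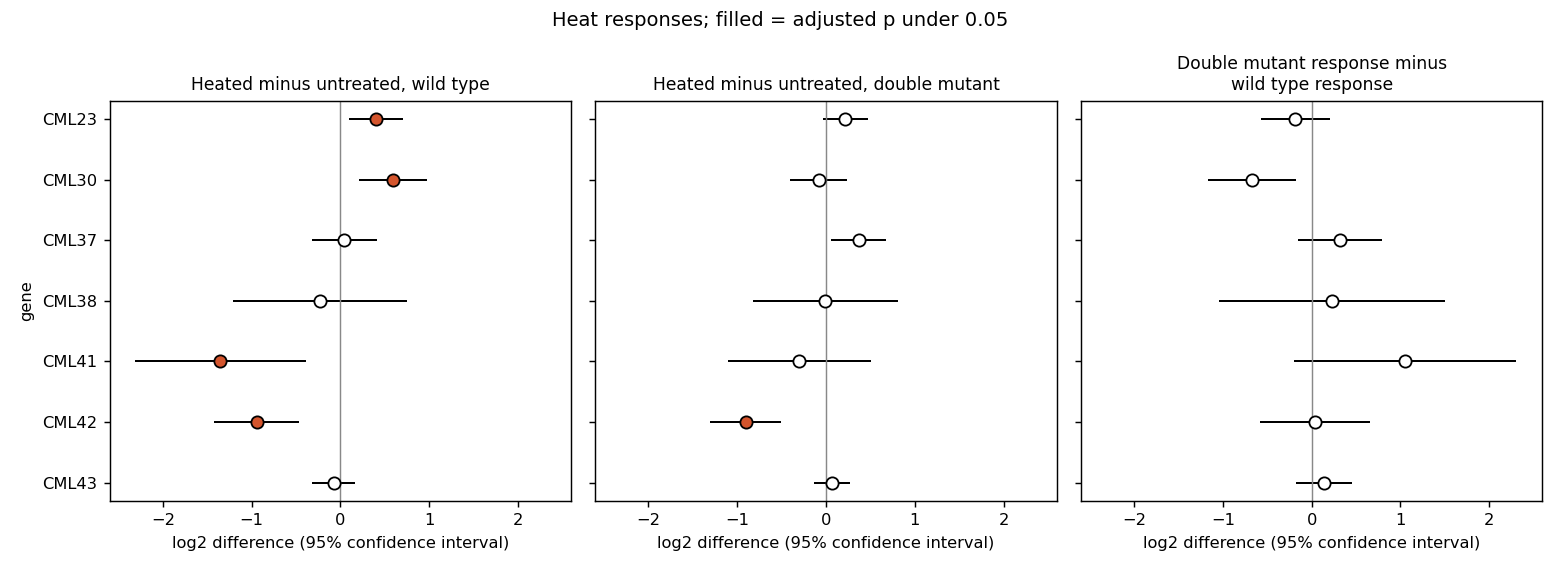
Log2 differences with 95% confidence intervals for the 7 calmodulin-like genes (rows), heated minus untreated in the wild type, the same in the double mutant, and the double mutant response minus the wild-type response, with filled points at an adjusted p under 0.05. The points of CML42 were nearly equal in both genotypes (-0.94 and -0.91), and no point in the difference of the responses was filled.

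None of the 7 calmodulin-like genes analysed was called between genotypes in the main fit. Few of all probe sets were called there, so a count of 0 among 7 genes is near the background. Nothing particular to these genes is read from it. Without heat 0 of 7 were called by limma (lowest adjusted p = 0.230), while 2.69% of all probe sets were called. An unadjusted p under 0.05 was found for 4233 of all 22746 probe sets and for 2 of the 7 genes. Of these 2, CML43 was lower in the double mutant by 0.24 ± 0.10 on the log2 scale (SE), at signals near the floor of the arrays, and CML41 was lower by 0.97 ± 0.41 (SE). Without untreated wild type replicate 1 the CML41 difference was 0.06, and without replicate 2 it was -2.00 and was called (adjusted p = 0.00306; over all its alternatives this value ran from 0.00306 to 0.940). CML42 differed by -0.01 (95% confidence interval -0.45 to 0.44). After heat 0 of 7 were called (lowest limma adjusted p = 0.149), against 0.897% of all probe sets. CML23 and CML30, 2 of 7, had an unadjusted p under 0.05, as did 2809 of all 22746 probe sets. Over all probe sets 204 were called after heat in the main fit and 1061 without heated double mutant replicate 3. That array scored nearer the heated wild type than its own group on the second principal component. Without heated double mutant replicate 3 the count after heat was 1, and without untreated wild type replicate 2 that without heat was 1. For the difference of the heat responses 0 of 7 were called (lowest limma adjusted p = 0.334), against 0.0747% of all probe sets, and that count was 0 in every alternative run. CML30, 1 of 7, had an unadjusted p under 0.05, as did 2372 of all 22746 probe sets. The genotype and heat comparisons share arrays, so their values are not independent of each other.

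**Figure D3:**
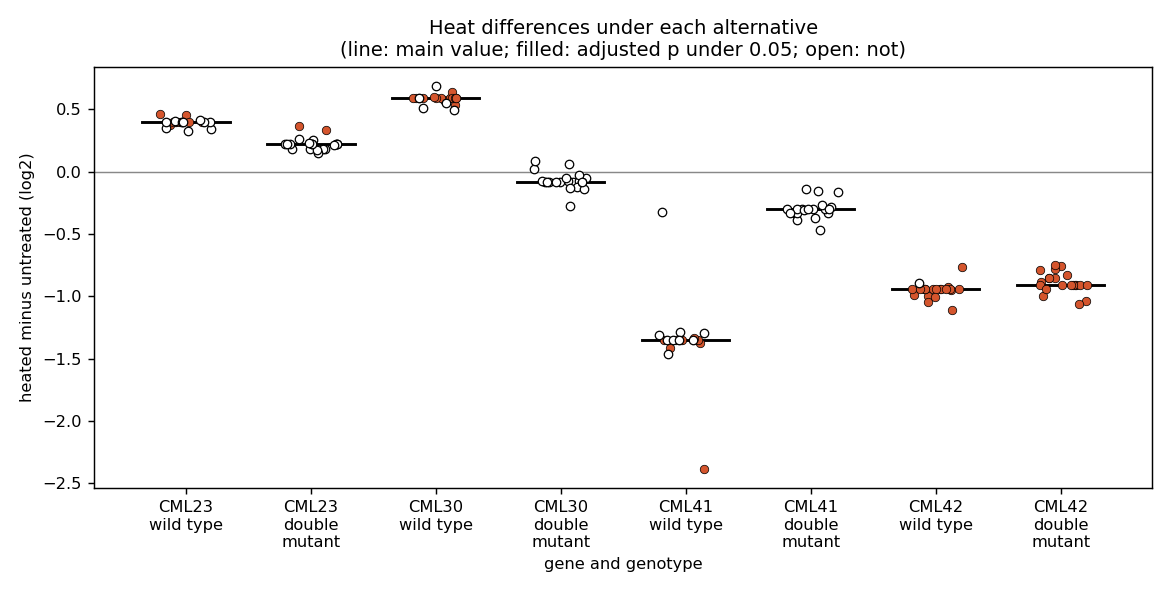
Heated minus untreated log2 differences (vertical axis) of CML23, CML30, CML41 and CML42 in each genotype, with the main value as a line and each alternative run for single genes as a point, filled at an adjusted p under 0.05. CML42 stayed between -1.11 and -0.75 in both genotypes, whereas CML41 in the wild type ran from -2.38 to -0.32.

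Other genes of calcium signalling were taken from a list drawn up by symbol. It found 8 channels, all glutamate receptor-like (GLR) proteins, which let cations including calcium across membranes, and 11 IQD proteins, scaffolds that bind calmodulin. No pump or exchanger, calmodulin-binding transcription regulator or partner of the CBL and CIPK pathway on the list had a single-gene probe set under its symbol. With heat, 1 of the 8 channels was called lower in wild-type plants, and in double mutants 1 was called higher and 1 lower. Over all probe sets 12.8% were called lower in the wild type, and 13.8% higher and 20.2% lower in the double mutant, so these counts were near the background. Their median log2 differences were -0.02 and 0.04. GLR3.5, of which a form is known to enter mitochondria, averaged 3.98 ± 0.11 (SD, n = 4) in the untreated double mutant and 4.80 ± 0.13 (SD, n = 3) in the heated one, a rise of 0.82 ± 0.10 (SE, limma adjusted p = 8.42e-05). In the wild type it averaged 3.95 ± 0.08 (SD, n = 2) without heat and 4.27 ± 0.15 (SD, n = 3) after it, a difference of 0.32 ± 0.12 (SE, limma adjusted p = 0.0710). The 2 responses of GLR3.5 differed by 0.49 ± 0.16 (SE), which did not pass (limma adjusted p = 0.315). After heat GLR3.5 was higher in the double mutant than in the wild type by 0.52 ± 0.11 (SE), just short of passing (limma adjusted p = 0.0505). That comparison passed with centring on reference genes, without heated double mutant replicate 3, with trend and robust moderation and with array weights. It did not pass in the other alternatives run for the channels. GLR2.8 fell by 0.55 ± 0.17 in the heated wild type (SE, limma adjusted p = 0.0389), to a mean of 3.39, under the lowest lower quartile, and was not called there when any 1 of the 5 wild-type arrays was left out. GLR1.4 changed by -0.46 ± 0.15 in the heated double mutant (SE, limma adjusted p = 0.0345) and was not called there after quantile normalization, with centring on reference genes, or without untreated double mutant replicate 1, 2 or 4 or heated replicate 2 or 3.

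With heat, 3 of 11 IQD genes were called lower in wild-type plants and 7 of 11 in double mutants, and none was called higher, while the shares called lower over all probe sets were 12.8% and 20.2%. Their median log2 differences were -0.12 and -0.60, beside 0.01 over all probe sets in each genotype. With arrays centred on reference genes 4 fell and 1 rose in the double mutant, and after quantile normalization 6 fell. The centring moved the median over all probe sets by 0.15 in the double mutant. With single arrays left out, 5 to 7 were called lower there and 2 to 4 in wild-type plants. The largest falls in the wild type were those of IQD23, at -1.28 ± 0.20 (SE, limma adjusted p = 0.000682), and IQD22, at -0.83 ± 0.15 (SE, limma adjusted p = 0.00167). In the double mutant the largest were those of IQD30, at -1.23 ± 0.22 (SE, limma adjusted p = 0.00106), and IQD28, at -1.12 ± 0.19 (SE, limma adjusted p = 0.000952). IQD30 read 4.94, 5.38, 6.06 and 5.85 in the untreated double mutant and 4.31, 4.50 and 4.17 in the heated one. The higher untreated readings were those of replicates 3 and 4, which also stood apart from replicates 1 and 2 on the second principal component. IQD22, IQD23 and IQD28 were called in both genotypes, but IQD28 was not called in the wild type when any 1 of the 5 wild-type arrays was left out. None of the 11 was called for the difference of the heat responses (lowest adjusted p = 0.467 by limma). An unadjusted p under 0.05 was found for 1 of 11, and for 2372 of all 22746 probe sets. A larger number of calls in the double mutant therefore does not show a stronger response.

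**Figure D4:**
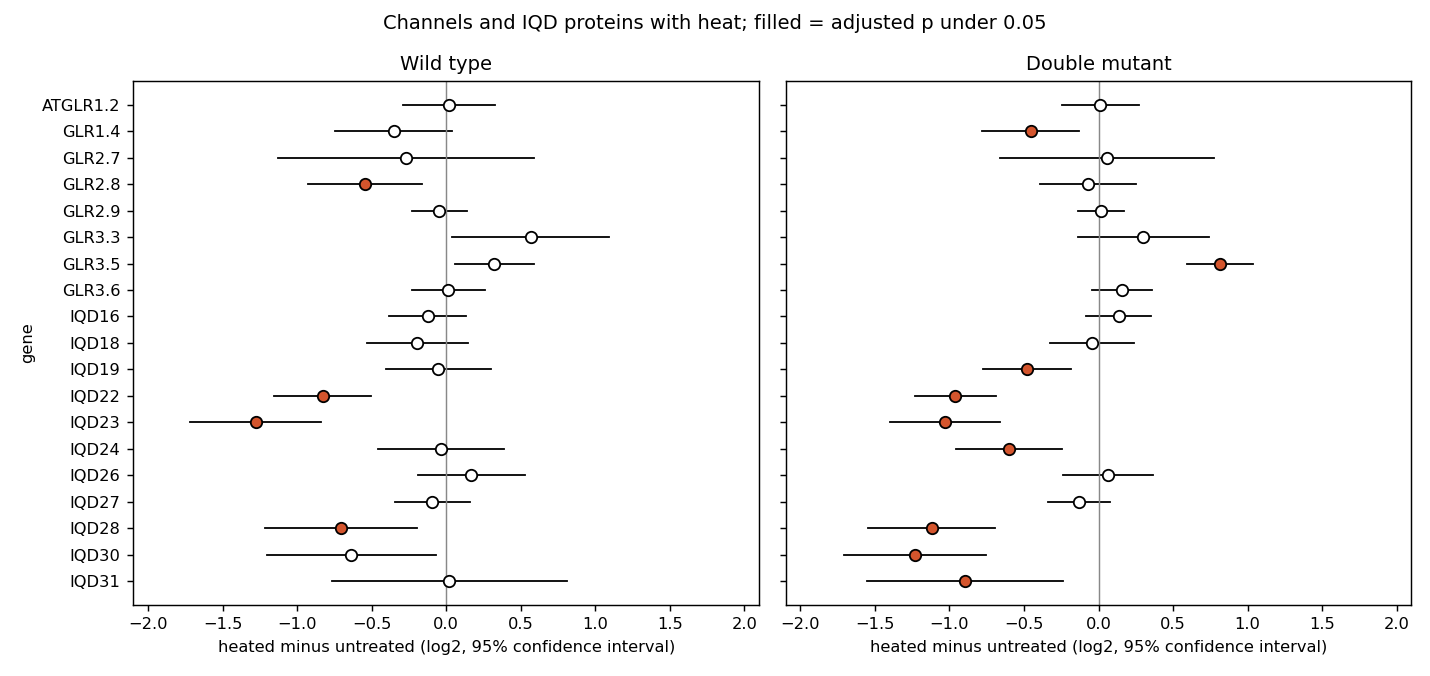
Heated minus untreated log2 differences with 95% confidence intervals for 8 glutamate receptor-like channels and 11 IQD proteins (rows), wild type on the left and double mutant on the right, with filled points at an adjusted p under 0.05. GLR3.5 was the 1 filled point above 0, and the filled IQD points all lay below 0, with 3 on the left and 7 on the right.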

How the data were processed

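The deposited table held log2 signals that the authors made with RMA from the affy package, per the submitters' processing notes; versions and genome build are not given in the sources used here. That method includes background correction, quantile normalization and probe summary, and gives no detection calls. The values were used as deposited. Of 22810 probe sets 64 controls were left out. The annotation gave 1 gene for 13513 of the other 22746, several genes for 503 and no gene for 8730. Of the 13513, 11933 carried a locus number as symbol. Gene numbers of 13436 matched RefSeq (TAIR10.1), and its symbols gave the same 7 genes. Each of the 7 had 1 probe set, without a suffix for shared probes.

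A limma model with 4 group means was fitted to all 12 arrays (8 residual and 3.22 prior degrees of freedom), so the 2 untreated wild-type arrays borrowed their spread from all groups. Tests were moderated, two-sided and Benjamini-Hochberg adjusted over all probe sets at 0.05. The procedure was tested on simulated data. Members, lists and tests were chosen with earlier results of these data known. Named genes were the called members (up to 10 each way per heat comparison and 5 each way otherwise), the member with the highest mean and that with the smallest p, and up to 2 called rises and falls per other class; the other members are described to account for all 7, and further IQD genes were named after their values were seen. Samples were not treated as paired by replicate number. Of 15 same-numbered pairs 3 had residual correlations above 0.1 (-0.348 to 0.265). Residuals were centred within groups of 2 to 4 arrays, so these values cannot settle whether same-numbered samples shared a batch. Alternatives were quantile normalization, centring on 4 reference genes (AT2G28390, AT4G34270, AT4G26410 and PEX4), a filter that keeps the upper 0.5 of mean signals, the replicate number as a block, leaving out each array, trend and robust moderation, array weights, only the compared groups (used for counts, not for single genes), a size of at least 1 and averaging a gene's probe sets. Leaving out untreated double mutant replicates 1 and 2 or 3 and 4 was added after the data were seen. Fits used limma 3.58.1 in R 4.3.3. Tables and figures used matplotlib 3.10.9, NumPy 2.4.6 and pandas 2.3.3 in Python 3.11.15.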

Additional observations from a re-analysis of the deposited data

How the results depend on the processing

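The heat call of CML42 in the double mutant held in the 21 alternatives run for single genes and was lost at a size of at least 1. No single-gene result that was called in either fit changed sign. Among single-gene values under alternatives, 675 stayed on their side of the adjusted p threshold, 25 lost a call and 10 gained one. The size threshold and the fit to only the compared groups are left out of these numbers. Averaging probe sets and leaving out arrays outside a comparison are counted in them, though neither could change a difference of these genes. The count of called calmodulin-like genes with heat in the wild type (4 in the main fit) was 2 among the upper 0.5 of probe sets by mean, which holds 2 of the 7 genes, 1 with the replicate block, 1 at a size of at least 1, and 2 without untreated double mutant replicates 1 and 2 or without replicates 3 and 4. It ran from 1 to 4 when 1 array was left out, where a lone untreated wild-type array was assumed to vary like the other groups. Arrays of the double mutant can end a wild-type call because all groups share the spread. In the double mutant the count (1 in the main fit) was 3 with arrays centred on reference genes, 2 with trend and robust moderation, 2 with array weights and 0 at a size of at least 1, and it ran from 1 to 2 with 1 array left out. Centring shifted the median over all probe sets, by 0.15 here, by -0.15 between untreated genotypes and by 0.21 for the difference of responses. Its reference genes were not all stable with heat. AT2G28390 changed with heat by -0.43 on the log2 scale in the wild type and by -0.71 in the double mutant. AT4G34270 and AT4G26410 rose in the wild type by 0.32 and 0.29, and PEX4 changed by 0.06 there and by -0.03 in the double mutant. Every result with this centring therefore carries their shifts. The genotype counts (0) ran from 0 to 1 without heat and from 0 to 1 after heat with 1 array left out, and the latter was 1 with array weights. The replicate block changed no other count of these genes. Over all probe sets, counts ran from 3912 to 6659 for heat in the wild type, 5923 to 9649 in the double mutant, 109 to 1469 between untreated and 33 to 1061 between heated genotypes, and 1 to 66 for the difference of responses. Signals of CML37 and CML43, most of CML23 and the heated arrays of CML41 lay close to the arrays' lower quartiles, and no file gave their background.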
